A study of Citrus x limon with 9 samples.

Results

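Expression in lemon buds under water deficit was set against buds from before the deficit and from after irrigation had been restored. All 9 libraries of the study entered the comparison. The 3 libraries of stage 2 (1 week after the start of water deficit) were set against the average of the stage 1 mean (3 libraries, watered trees 1 week before the deficit) and the stage 3 mean (3 libraries, 1 week after full watering had resumed). The greenhouse trees were of the lemon cultivar Femminello grafted on trifoliate orange rootstock, and each library was made from the terminal bud and the buds just below it. The study's methods describe 3 groups of trees as the 3 repeats and do not say whether the same groups were sampled at each stage. Trees kept watered until the date of stage 2 or stage 3 are not among the libraries. The buds also differed in development. The study describes undetermined buds before the deficit, floral differentiation within days of its start, and flower buds that could be seen by eye at stage 3. Water supply, date and bud development therefore differ together between stage 2 and the watered stages and cannot be told apart. A change that runs steadily from stage 1 to stage 3 cancels in this comparison.

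Plant cells that lose water lower their turgor, and cell expansion slows. Abscisic acid, DREB and NAC transcription factors, chaperones, compatible solutes and water channels are the classic parts of the drought response in leaves and roots. The circadian clock, jasmonate and cytokinin pathways are linked to it in Arabidopsis, and in citrus a period of water deficit is also a signal for flowering.

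Expression was measured as FPKM, the number of sequenced fragments per kilobase of gene, scaled to the number of mapped fragments, as the authors deposited it. The contrast of a gene is its stage 2 mean minus the average of the stage 1 and stage 3 means on the log2(FPKM + 1) scale, on which a value of 1 is close to a 2-fold difference for well expressed genes and which is smaller than the true change for weakly expressed genes. Of the 22353 genes in the table, 17729 reached 1 FPKM in 3 or more libraries and were tested with limma. Some rises named below, such as Cs9g17050, Cs8g05990, Cs7g06170 and Cs3g16896, reached 1 FPKM in stage 2 libraries only. They entered the test through the stage where they are high. A call needed an adjusted p (Benjamini-Hochberg) under 0.05 together with an absolute contrast of at least 1. The gene names are those of the best protein match, or where that names no function, of the description in the study's supplementary gene table. The gene lists below were built from best matches, so that genes named by the supplementary table are outside them, and that table describes genes the study itself had picked, which is not independent evidence of a change.

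At stage 2, 399 genes were called higher (2.25% of those tested) and 700 were called lower (3.95%). The counts of each gene list below are to be read against these shares. Non-overlap of the libraries alone was frequent, since the 3 stage 2 libraries all lay above the 6 watered libraries for 2966 genes (16.7%) and all below for 2040 genes (11.5%). Both conditions together were met by 373 higher genes (2.10%) and 618 lower genes (3.49%), and these 991 genes are called reversible below. The name is a label for these conditions and does not ask that stage 3 returned to the stage 1 level. It includes genes such as Cs5g10800, whose stage 2 mean was only 0.28 above stage 3 on the log2 scale. It also includes genes such as Cs8g01960, whose main feature is a high stage 3 level. The other 26 higher and 82 lower called genes overlapped with at least 1 watered library. Without the fold threshold 3895 genes were higher and 3125 lower, so the share of higher genes among the calls was 55.48% without it and 36.31% with it. Division of each library by its median FPKM gave a share of 31.77%.

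The reversible changes were mostly of moderate size. The median contrast was 1.34 for the higher and -1.34 for the lower genes, against 0.05 over all genes tested. An absolute contrast of 1 to 2 was found for 310 of the 373 higher genes, 2 to 3 for 50 and above 3 for 13, and for 541, 66 and 11 of the 618 lower genes. Called against each watered stage separately were 248 of the higher and 355 of the lower genes. In 14 of the lower genes stage 2 was listed at 0 in all 3 libraries.

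Among the reversible genes, a level at stage 3 close to that of stage 1 was more frequent for the rises than for the falls, a comparison of counts that was not tested. Between stage 3 and stage 1, whose libraries also enter the contrast, 477 of the genes tested were called higher (2.69%) and 397 lower (2.24%) at stage 3. Of the 373 genes that were higher under deficit, 324 were not called between the watered stages, 36 were higher at stage 3 than at stage 1 and 13 were lower. Of the 618 genes that were lower under deficit, 461 were not called, 109 were higher at stage 3 than at stage 1 and 48 were lower. The stage 3 mean was within 0.5 of the stage 1 mean on the log2 scale for 238 of the higher genes (63.81%) and 267 of the lower genes (43.2%), and for 79.69% of all genes tested.

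**Figure D1:**
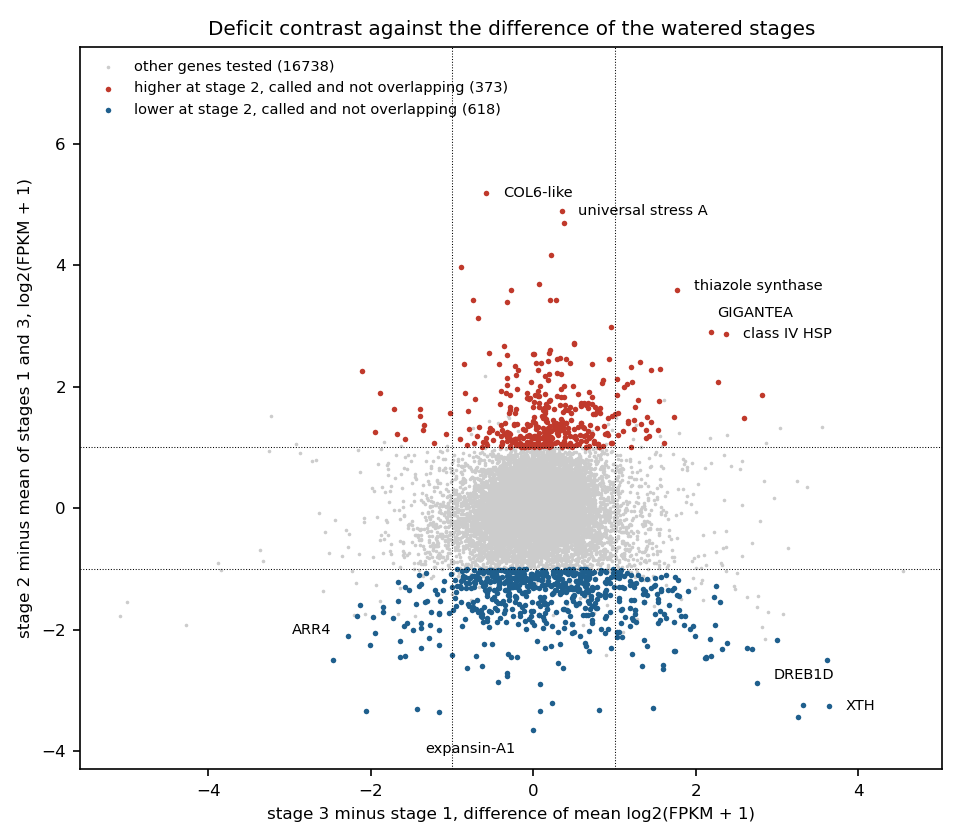
Each point is 1 of the 17729 genes tested, with the contrast of stage 2 against both watered stages on the y axis and stage 3 minus stage 1 on the x axis, both as differences of mean log2(FPKM + 1); dotted lines mark 1 and -1. The 618 reversible falls (blue) spread more widely on the x axis than the 373 reversible rises (red). Of the falls 109 were called higher and 48 lower at stage 3 than at stage 1, and of the rises 36 and 13. The median on the x axis was 0.12 for the falls and 0.18 for the rises.

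The largest rise belonged to a CONSTANS-LIKE 6-like gene (Cs8g20740), which encodes a B-box zinc finger protein of the family of the Arabidopsis flowering regulator CONSTANS. Its values were 89.7, 95.5 and 89.9 FPKM at stage 2, against 1.81, 2.75 and 1.79 FPKM at stage 1 and 1.05, 1.19 and 0.96 FPKM at stage 3. The contrast was 5.20 ± 0.12 (SE, adjusted p = 4.59e-10), and the lowest stage 2 library lay far above the highest watered one. The gene orange1.1t01663, described as universal stress A, had 256, 215 and 217 FPKM at stage 2, against 6.11, 5.37 and 6.03 FPKM at stage 1 and 8.61, 7.46 and 7.05 FPKM at stage 3, a contrast of 4.90 ± 0.09. A light-regulated protein gene (Cs2g14490) had 148, 161 and 171 FPKM at stage 2, against 4.69, 3.48 and 5.22 FPKM at stage 1 and 7.22, 5.5 and 5.45 FPKM at stage 3, a contrast of 4.71 ± 0.12. Stage 3 differed from stage 1 by -0.58, 0.35 and 0.37 on the log2 scale in these genes, and none of them was called between the watered stages.

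The next rises were of the same kind, low in both watered stages and high at stage 2. A gene described as Maternal effect embryo arrest 59 (Cs8g19730) had 81.3, 69.05 and 80.9 FPKM at stage 2, against 3.12, 2.72 and 3.2 FPKM at stage 1 and 3.64, 4.09 and 3.3 FPKM at stage 3. Expression of Cs7g03390, whose best match is an uncharacterized protein, was 22.99, 20.6 and 22.1 FPKM at stage 2, against 0.52, 2.03 and 0.7 FPKM at stage 1 and 0, 0 and 0.22 FPKM at stage 3. Thiamine thiazole synthase 2 (Cs2g07600), an enzyme of vitamin B1 synthesis, was 135, 130.3 and 126 FPKM at stage 2, against 5.81, 4.36 and 4.63 FPKM at stage 1 and 21.7, 18.7 and 17.1 FPKM at stage 3. This gene remained above stage 1 after rewatering, with a stage 3 minus stage 1 difference of 1.77 (adjusted p = 3.88e-07), and was the only one of the 12 largest rises called between the watered stages. The remaining rises among the largest 12 were an ankyrin repeat protein (orange1.1t04846, contrast 3.70), a PCL1-like transcription factor (Cs8g18860, 3.60), a chloroplast thioredoxin-like 3-1 protein (orange1.1t02220, 3.43), the uncharacterized Cs9g17050 (3.43), Maternal effect embryo arrest 14 (Cs5g28840, 3.42) and Cold regulated gene 27 (Cs8g05990, 3.39).

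**Figure D2:**
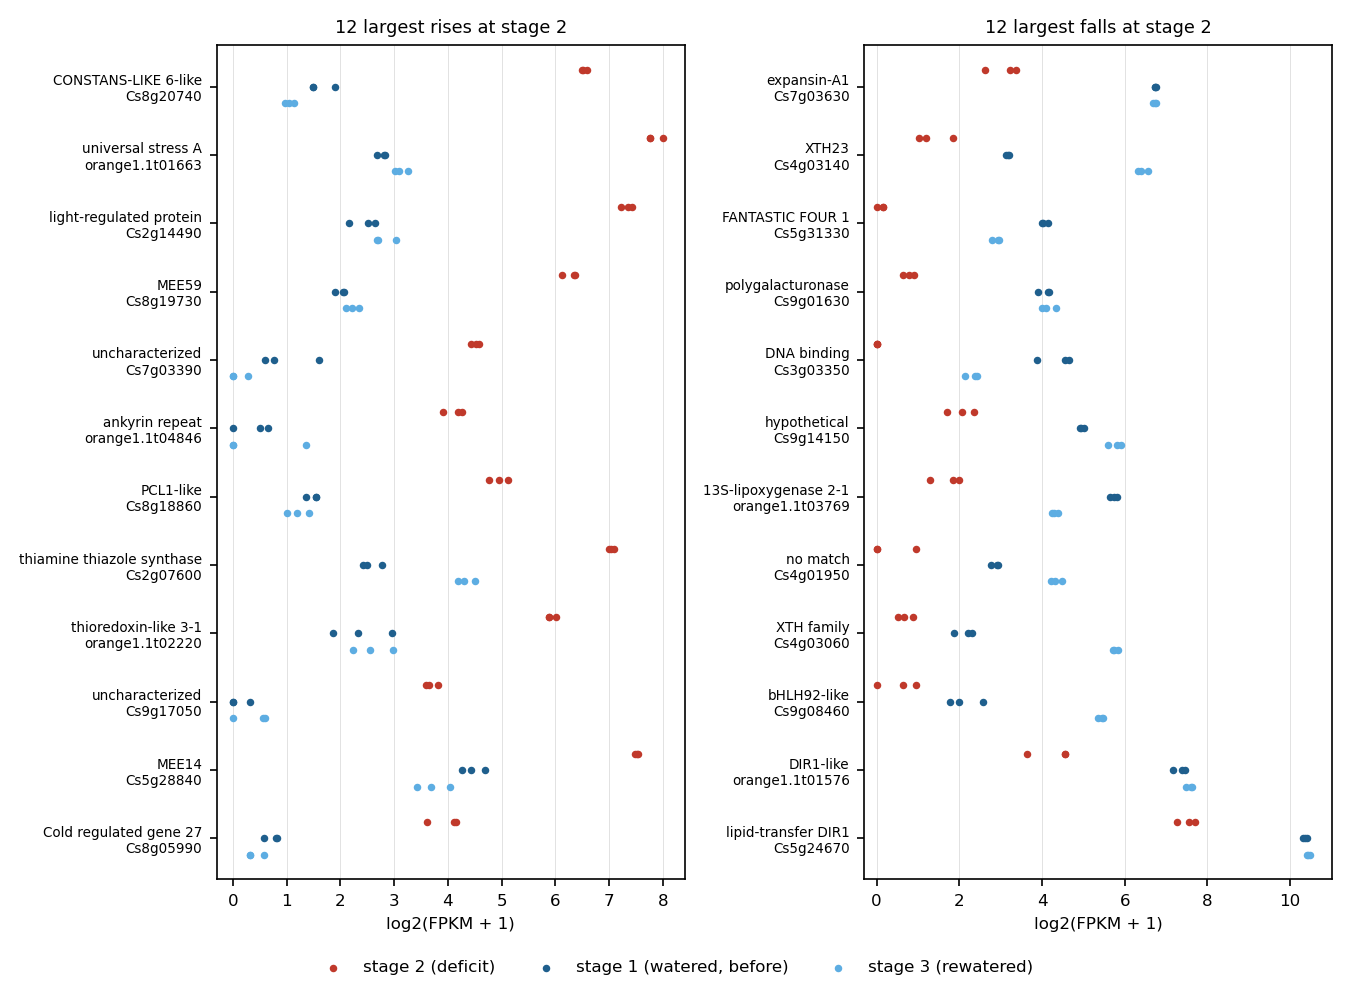
Expression of the 12 largest reversible rises (left) and the 12 largest reversible falls (right) in each of the 9 libraries, as log2(FPKM + 1) on the x axis, with 1 point per library coloured by stage. The stage 2 points of each gene lie apart from all watered points, and among the falls several stage 3 points, as in both XTH genes and bHLH92-like, lie well to the right of stage 1.

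The study had designed primer pairs for real-time PCR of 25 of the genes tested here, of which 5 were reversible rises and 7 reversible falls. The pairs for 3 of the rises and 3 of the falls that are described in this text are printed to show which transcript each identifier stands for, as 5′ to 3′ sequences.
Cs8g20740 (CONSTANS-LIKE 6-like) sense: ggaaggcatttggcgtgt
Cs8g20740 (CONSTANS-LIKE 6-like) antisense: gatttgctgctcctctctctca
Cs7g03390 (uncharacterized) sense: ggtccacaagaaccccatc
Cs7g03390 (uncharacterized) antisense: aagaaagcgaagaagccga
Cs3g21790 (GIGANTEA-like) sense: cagcttgtagaacttcttcggg
Cs3g21790 (GIGANTEA-like) antisense: accccgattgcacgcaaa
Cs6g21260 (gibberellin-regulated protein 4-like) sense: atcttcatcttggctgctctctt
Cs6g21260 (gibberellin-regulated protein 4-like) antisense: tgacagtcccaggtccgtaat
orange1.1t02265 (squamosa promoter-binding-like protein 9-like) sense: cgtctcaacagagtaggcaaca
orange1.1t02265 (squamosa promoter-binding-like protein 9-like) antisense: cggcacttagagggaccaat
Cs8g02900 (auxin transporter-like protein 5-like) sense: gtgctactcactttgccgtatt
Cs8g02900 (auxin transporter-like protein 5-like) antisense: tccctttctttccttgtcctg

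Genes of the circadian clock and CONSTANS-like factors were among the rises. Of 12 clock genes tested, 3 were called higher and none lower in the limma fit. At an unadjusted p under 0.05, 6 were higher and 1 lower, and limma without the trend made the same counts of calls. Of 11 CONSTANS-like and B-box genes, 3 were called higher and none lower, with 6 higher and 1 lower at an unadjusted p under 0.05. The median contrast was 0.44 in the clock list and 0.28 in the CONSTANS-like list, against 0.05 over all genes. With genes added by KEGG entry, the median was 0.50 over 13 clock genes and 0.04 over 16 CONSTANS-like genes, the second no higher than that of all genes, with 4 called higher and none lower in each. GIGANTEA (Cs3g21790), an evening clock protein that promotes flowering in Arabidopsis, had 87.3, 91.3 and 101 FPKM at stage 2, against 5.64, 4.97 and 4.21 FPKM at stage 1 and 25.9, 25.01 and 26.5 FPKM at stage 3. Its contrast was 2.90 ± 0.09 (adjusted p = 1.34e-09), and stage 3 stayed 2.18 above stage 1 on the log2 scale.

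Other clock genes differed in how far they returned. A PRR95-like pseudo-response regulator (orange1.1t00571), a repressor class of the clock, had 46.5, 44.4 and 49.7 FPKM at stage 2, against 4.6, 3.7 and 3.64 FPKM at stage 1 and 38.5, 30.8 and 32.3 FPKM at stage 3, so that stage 3 was close to stage 2. In the PCL1-like gene (Cs8g18860, outside the list), the homologue of an evening complex protein of Arabidopsis, the levels were 33.9, 29.9 and 26.2 FPKM at stage 2, against 1.56, 1.91 and 1.93 FPKM at stage 1 and 1.28, 1.67 and 1.01 FPKM at stage 3, where the watered stages differed by -0.28. Both other members of that complex changed less and were not called. EARLY FLOWERING 4-like (Cs7g31110) had 42.9, 39.5 and 38.9 FPKM at stage 2, against 23.1, 25.3 and 22.03 FPKM at stage 1 and 20.3, 20.8 and 18.7 FPKM at stage 3, and EARLY FLOWERING 3-like (Cs1g19130) had a contrast of 0.77. Several related genes were chosen after their values were seen. Adagio 3 (Cs2g17510), a blue-light receptor F-box protein, had 31.3, 25.6 and 27.9 FPKM at stage 2, against 4.26, 4.72 and 4.55 FPKM at stage 1 and 5.11, 4.66 and 4.11 FPKM at stage 3. A pseudo-response regulator described as PRR73 (Cs8g17520) had 115, 115 and 122 FPKM at stage 2, against 15.04, 11.5 and 12.9 FPKM at stage 1 and 42.1, 41.2 and 38.2 FPKM at stage 3. The APRR7-like gene Cs6g03960 was called in the contrast and overlapped with stage 3, with 46.96, 45.7 and 47.5 FPKM at stage 2, against 9.03, 9.03 and 9.1 FPKM at stage 1 and 47.5, 45.2 and 40.2 FPKM at stage 3. The morning gene LHY-like (orange1.1t00580) was the exception in direction, with 568, 601 and 623 FPKM at stage 2, against 1040.0, 1026 and 1011 FPKM at stage 1 and 883, 885 and 856 FPKM at stage 3, a contrast of -0.67 that is short of the fold threshold.

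Clock transcripts change over the day in plants. The hour at which buds were collected is given for no stage in the sources used here, and its part in these differences was not tested.

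Among the CONSTANS-like genes, CONSTANS-LIKE 16-like (Cs2g12490) had 118, 128 and 129.8 FPKM at stage 2, against 25.4, 25.1 and 24.2 FPKM at stage 1 and 17.1, 18.3 and 15.1 FPKM at stage 3, a contrast of 2.56 ± 0.07. The salt tolerance-like B-box gene orange1.1t01583 was 6.62, 5.3 and 8.94 FPKM at stage 2, against 0.97, 2.69 and 1.44 FPKM at stage 1 and 2.02, 1.44 and 2.17 FPKM at stage 3. CONSTANS-LIKE 14-like (Cs7g02880, outside the list and picked once its values were known) was at 43.8, 46.9 and 47.1 FPKM at stage 2, against 8.98, 7.4 and 12.2 FPKM at stage 1 and 6.63, 10.3 and 7.77 FPKM at stage 3. None of these genes was called between stage 3 and stage 1, and their watered stages differed by -0.54, 0.13 and -0.18. Of 18 genes of the photosynthesis apparatus, 2 chlorophyll a-b binding protein genes were called higher. CP24 10B (orange1.1t03504) had 435, 424 and 382 FPKM at stage 2, against 96.3, 98.6 and 101 FPKM at stage 1 and 240.1, 243 and 261 FPKM at stage 3, and P4 (Cs5g10800) had 162, 162 and 157 FPKM at stage 2, against 41.6, 45.3 and 40.9 FPKM at stage 1 and 132, 135 and 130.1 FPKM at stage 3. Both remained above stage 1 at stage 3, and both are among the leaf markers summed below, whose part in this result was not tested.

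**Figure D3:**
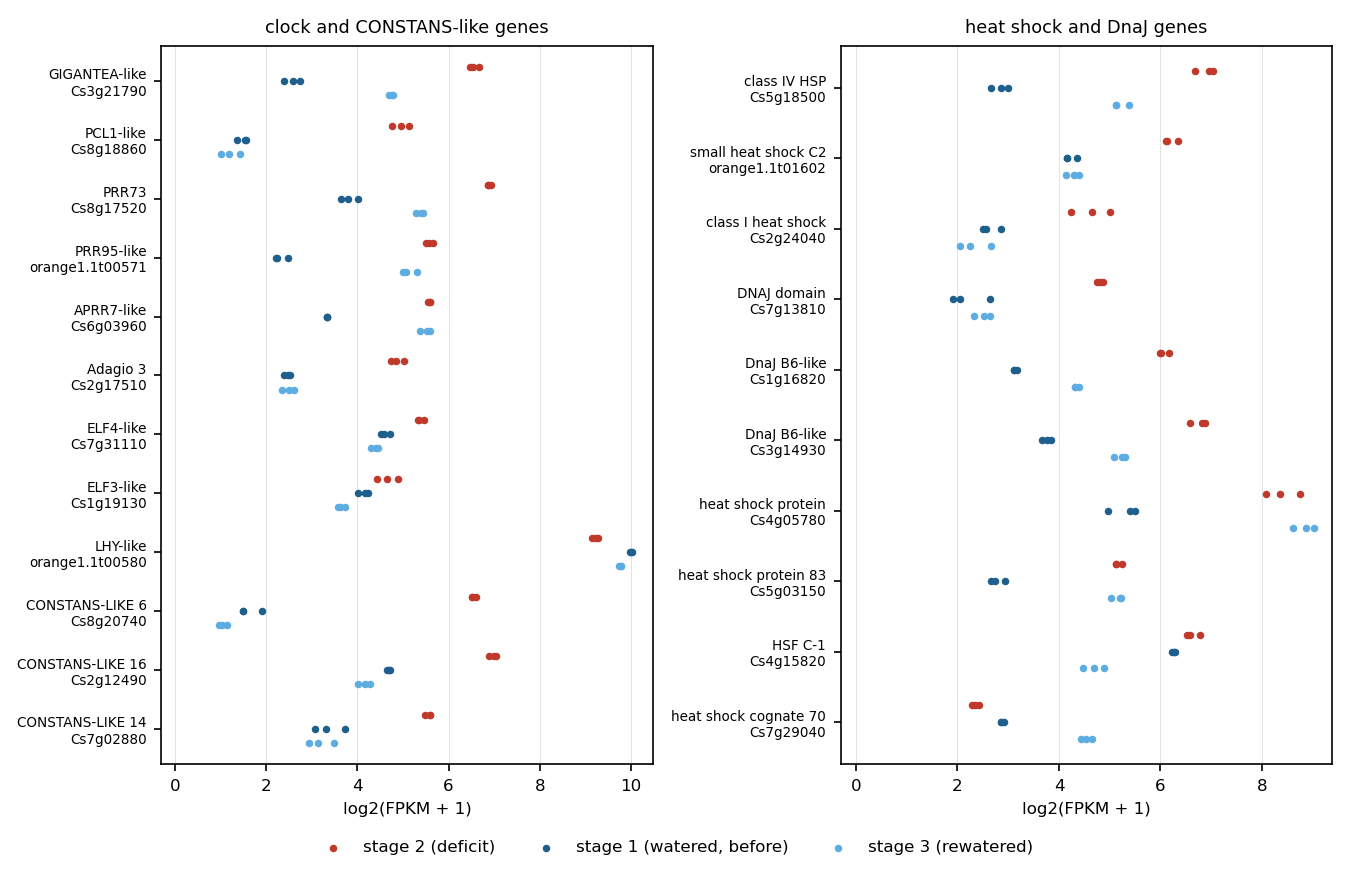
Expression of clock and CONSTANS-like genes (left) and of heat shock and DnaJ genes (right) in each library, as log2(FPKM + 1) on the x axis, with 1 point per library coloured by stage. CONSTANS-LIKE 6, PCL1-like and Adagio 3 rose at stage 2 and returned, whereas APRR7-like and heat shock protein 83 stayed near their stage 2 level at stage 3. The heat shock and DnaJ genes shown include some picked once their values were known.

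Heat shock proteins act as chaperones that keep other proteins from aggregating. Of 46 heat shock genes tested, 6 were called higher and 1 lower, and 3 of the rises were reversible. A class IV heat shock protein (Cs5g18500) had 131, 124 and 101 FPKM at stage 2, against 7.03, 6.28 and 5.3 FPKM at stage 1 and 33.7, 33.8 and 40.9 FPKM at stage 3, a contrast of 2.87 ± 0.11 (adjusted p = 4.8e-09). A 26.5 kDa mitochondrial heat shock protein (Cs1g12560) was 7.74, 4.03 and 9.57 FPKM at stage 2, against 0.68, 0.65 and 1.67 FPKM at stage 1 and 2.48, 4.0 and 3.8 FPKM at stage 3. Heat stress transcription factor C-1 (Cs4g15820) had 94.5, 108 and 90.6 FPKM at stage 2, against 76.4, 74.4 and 76.7 FPKM at stage 1 and 28.4, 24.9 and 21.3 FPKM at stage 3, so it rose modestly and then fell below its stage 1 level. The opposite course was taken by heat shock cognate 70 kDa protein (Cs7g29040), with 4.11, 3.86 and 4.37 FPKM at stage 2, against 6.21, 6.57 and 6.27 FPKM at stage 1 and 20.6, 24 and 22.1 FPKM at stage 3.

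Other chaperone genes, chosen after their values were seen, show that the family did not share 1 course. Heat shock protein 83-like (Cs5g03150) was 33.96, 33.7 and 37 FPKM at stage 2, against 6.63, 5.3 and 5.64 FPKM at stage 1 and 36.5, 35.95 and 31.4 FPKM at stage 3, which is a lasting and not a reversible rise. DnaJ proteins, the partners of 70 kDa chaperones, included reversible cases. A DnaJ domain gene (Cs7g13810) had 25.8, 28.2 and 26.8 FPKM at stage 2, against 3.14, 5.28 and 2.78 FPKM at stage 1 and 4.78, 5.23 and 4.0 FPKM at stage 3. A DnaJ B6-like gene (Cs3g14930) had 112, 116 and 94.7 FPKM at stage 2, against 11.6, 12.7 and 13.3 FPKM at stage 1 and 36.8, 32.9 and 38.2 FPKM at stage 3, and stayed 1.45 above stage 1 at stage 3. When uncharacterized genes were added to the list by a KEGG entry that they share with list members, 85 heat shock genes were tested, of which 12 were called higher and 8 lower.

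Of 66 calcium sensing and ion channel genes, 5 were called higher and 2 lower, and 4 of the genes called higher were reversible. The other, CBL-interacting protein kinase 5-like (Cs7g06310, picked once its values were known), did not rise from stage 1 to stage 2. It had 28.1, 25.4 and 22.3 FPKM at stage 2, against 34.65, 33.3 and 32.5 FPKM at stage 1 and 3.67, 3.18 and 3.84 FPKM at stage 3. Its contrast of 1.06 came from the low stage 3. With genes added by KEGG entry, 5 of 140 were called higher and 7 lower, so the balance of calls turned. Calcineurin B-like protein 7 (orange1.1t02723), a calcium sensor that activates protein kinases, had 58.7, 66.5 and 83.2 FPKM at stage 2, against 6.43, 5.26 and 4.47 FPKM at stage 1 and 11.4, 14.8 and 8.47 FPKM at stage 3, a contrast of 2.98 ± 0.16. Cyclic nucleotide-gated channels let calcium and other ions into the cell, and genes for them with neighbouring identifiers were called higher. Cs9g18210 had 28.5, 29.1 and 36.9 FPKM at stage 2, against 3.08, 2.91 and 3.77 FPKM at stage 1 and 6.79, 7.18 and 7.32 FPKM at stage 3, and Cs9g18180 had 42.4, 43.6 and 37.9 FPKM at stage 2, against 6.38, 6.79 and 5.4 FPKM at stage 1 and 14.6, 12.1 and 17.5 FPKM at stage 3. They may share reads, since the treatment of reads that fit several genes is not given in the sources used here. Going the other way, the plasma membrane calcium pump gene Cs1g21430 had 1.29, 0.99 and 1.99 FPKM at stage 2, against 4.85, 4.56 and 3.72 FPKM at stage 1 and 26.9, 26.4 and 23.9 FPKM at stage 3.

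Terpenoid synthesis had 8 of 38 genes called higher and 1 lower, and the rises were led by (E)-beta-farnesene synthase-like genes, which make volatile sesquiterpenes. The list as a whole did not share the rise, with a median contrast of 0.08 against 0.05 over all genes tested. In it 13 genes were higher and 11 lower at an unadjusted p under 0.05. When extended by KEGG entry, it had 8 of 44 called higher and 3 lower. Cs4g11330 had 9.42, 10.7 and 13.6 FPKM at stage 2, against 2.0, 3.04 and 2.77 FPKM at stage 1 and 3.89, 2.21 and 3.25 FPKM at stage 3, and orange1.1t03302 had 19.6, 19.8 and 22.1 FPKM at stage 2, against 7.93, 6.02 and 5.68 FPKM at stage 1 and 4.47, 5.44 and 5.61 FPKM at stage 3. Further such genes, Cs4g11320 and Cs4g12460, had contrasts of 1.64 and 1.62. These genes are close relatives and their reads could have been split among them. The germacrene D synthase-like gene Cs4g12110 fell, with 0.13, 0.34 and 0 FPKM at stage 2, against 3.47, 3.28 and 5.05 FPKM at stage 1 and 2.14, 1.15 and 1.36 FPKM at stage 3. Another farnesene synthase-like gene outside the list, orange1.1t05393, picked once its values were known, was listed at 0 in the 3 libraries of stage 2, against 3.88, 1.5 and 1.0 FPKM at stage 1 and 6.93, 2.12 and 3.41 FPKM at stage 3. Without stage 2 replicate 1, 5 genes of the list were called in place of 9. Among the lost calls, Cs3g03640, Cs4g12350 and Cs3g03630 then failed the filter and were not tested. Cs3g03640 and Cs4g12350 reached 1 FPKM at stage 2 only, so they are counted among the rises through the stage where they are high.

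Flavonoid and redox genes moved in both directions. In the phenylpropanoid and flavonoid list 6 of 57 genes were called higher and 5 lower. Chalcone synthase (Cs3g19360), the entry enzyme of flavonoid synthesis, had 134, 129 and 131 FPKM at stage 2, against 87.5, 85.9 and 81.7 FPKM at stage 1 and 34.2, 27.4 and 37.1 FPKM at stage 3, a rise at stage 2 followed by a level below stage 1. Flavanone 3-dioxygenase (Cs5g16310) had 17.6, 18.2 and 20.2 FPKM at stage 2, against 8.75, 6.82 and 6.7 FPKM at stage 1 and 4.1, 6.27 and 6.65 FPKM at stage 3. The anthocyanidin glucosyltransferase-like gene Cs9g18820 fell, with 3.14, 4.39 and 3.35 FPKM at stage 2, against 20.1, 18.9 and 20.01 FPKM at stage 1 and 7.53, 10.7 and 10.2 FPKM at stage 3. In the list of peroxidase, glutathione and redox genes 7 of 109 were called higher and 8 lower. All 7 rises in that list lay within 0.5 log2 units of stage 1 at stage 3, among them glutathione S-transferase Cs9g10400 (61.02, 65.6 and 70.5 FPKM at stage 2, against 22.9, 20.1 and 26.97 FPKM at stage 1 and 32.3, 24.1 and 24.7 FPKM at stage 3). None of the 7 reversible falls did, and L-ascorbate oxidase homolog Cs8g01960 had 0.2, 0.49 and 1.23 FPKM at stage 2, against 1.47, 1.54 and 1.72 FPKM at stage 1 and 31.5, 30.7 and 29.6 FPKM at stage 3.

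Receptor and defence genes added smaller numbers of rises. Of 73 lectin and wall-associated receptor kinases, 3 were called higher and 1 lower, against 2.25% and 3.95% of all genes tested. Wall-associated receptor kinase-like 1 (orange1.1t01937) had 13.97, 14.6 and 17.6 FPKM at stage 2, against 2.66, 3.4 and 2.91 FPKM at stage 1 and 4.7, 6.08 and 4.64 FPKM at stage 3. Of 55 pathogenesis-related and protease inhibitor genes, 4 were called higher and 6 lower. A chitinase-like gene (Cs7g06170) had 4.19, 5.21 and 6.35 FPKM at stage 2, against 0.52, 0 and 0.26 FPKM at stage 1 and 0.85, 0.13 and 0.38 FPKM at stage 3, and thaumatin-like protein 1 gene Cs3g26240 had 63.5, 60.5 and 60.5 FPKM at stage 2, against 19.6, 22.3 and 20.1 FPKM at stage 1 and 27, 24.3 and 28.1 FPKM at stage 3. Another thaumatin-like gene (Cs8g02870) fell, with a contrast of -1.33, and so did the defence gene activator PTI5-like (Cs2g05280), with 18.97, 12.5 and 14.02 FPKM at stage 2, against 54.1, 49.2 and 52.05 FPKM at stage 1 and 52.6, 57.6 and 53.2 FPKM at stage 3.

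Wall-loosening genes made up 4 of the 12 largest falls, among them the top 2. The other 8 were FAF1, a DNA-binding gene, a lipoxygenase, bHLH92-like, a pair of DIR1 genes and a pair with no named function. Expansin-A1-like (Cs7g03630), whose protein loosens walls without cutting them, had 8.37, 9.27 and 5.1 FPKM at stage 2, against 107, 105 and 105 FPKM at stage 1 and 106, 106 and 102 FPKM at stage 3. Its contrast was -3.66 ± 0.13 (adjusted p = 3.6e-09), and the watered stages differed by -0.01. A polygalacturonase gene (Cs9g01630), for an enzyme that cuts pectin, had 0.55, 0.88 and 0.71 FPKM at stage 2, against 16.6, 16.98 and 13.98 FPKM at stage 1 and 15.1, 19.4 and 16.1 FPKM at stage 3. Xyloglucan endotransglucosylase/hydrolases (XTH), which cut and rejoin the xyloglucan that ties cellulose fibres together, fell at stage 2 and were highest at stage 3. XTH23 (Cs4g03140) had 1.28, 1.04 and 2.59 FPKM at stage 2, against 8.02, 8.21 and 7.69 FPKM at stage 1 and 83.8, 93.02 and 78.5 FPKM at stage 3, and the XTH family gene Cs4g03060 had 0.57, 0.44 and 0.84 FPKM at stage 2, against 3.6, 3.93 and 2.67 FPKM at stage 1 and 52.4, 51.6 and 56.6 FPKM at stage 3. Both were called higher at stage 3 than at stage 1, by 3.26 and 3.64 on the log2 scale (adjusted p = 1.46e-07 and 1.79e-08). These XTH genes have neighbouring identifiers and may share reads. The wall-loosening genes in this paragraph were named by the supplementary table and are not in the list counted next.

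In the list of xyloglucan, expansin and pectin enzymes, 13 of 54 genes tested were called lower and none higher. At an unadjusted p under 0.05, 27 were lower and 8 higher, and limma without the trend also called 13 lower and none higher. The median contrast of the list was -0.34. Of the 12 reversible falls 10 were not called between stage 3 and stage 1. Expansin-A5-like (Cs6g21460) had 3.79, 3.05 and 2.76 FPKM at stage 2, against 25.7, 28.9 and 28.7 FPKM at stage 1 and 16, 21.3 and 13.5 FPKM at stage 3. Expansin-A4-like (Cs8g18640) had 10.2, 8.63 and 7.61 FPKM at stage 2, against 33.7, 32.96 and 31.8 FPKM at stage 1 and 41.8, 37.7 and 49.8 FPKM at stage 3. Expansin-like A1 (Cs8g01880) had 28.2, 24.5 and 24.7 FPKM at stage 2, against 55.3, 58.9 and 46.6 FPKM at stage 1 and 202, 221 and 197 FPKM at stage 3, and was called higher at stage 3 than at stage 1. Pectate lyase 18-like (Cs5g06600) had 5.49, 5.05 and 5.39 FPKM at stage 2, against 34.8, 35.9 and 37.4 FPKM at stage 1 and 27.6, 31.3 and 27.6 FPKM at stage 3. With genes added by KEGG entry, 29 of 88 were called lower and 1 higher.

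Of 74 cellulose and lignin genes, 8 were called lower and 2 higher, and the other 64 were not called. Cellulose synthase-like protein D3 (Cs3g09000) had 4.53, 4.66 and 4.61 FPKM at stage 2, against 14.7, 14.5 and 12.7 FPKM at stage 1 and 65.7, 66.95 and 57.98 FPKM at stage 3, and COBRA-like protein 7 (Cs9g02720) had 5.34, 4.81 and 5.87 FPKM at stage 2, against 16.98, 16.97 and 14.02 FPKM at stage 1 and 29.2, 23.96 and 24.8 FPKM at stage 3. Cellulose synthase A subunit 8-like (Cs9g08750), whose Arabidopsis counterpart builds secondary walls, rose instead, with 64.5, 72.5 and 80.2 FPKM at stage 2, against 16.8, 14.6 and 13.3 FPKM at stage 1 and 20.4, 19.8 and 18.4 FPKM at stage 3, a contrast of 2.02 ± 0.09. Another subunit 8-like gene (Cs2g04590) and a subunit 7-like gene (Cs4g01990) had contrasts of -0.59 and -0.58 and were not called. The other called rise of the list was a shikimate hydroxycinnamoyltransferase (Cs1g14450, contrast 1.06), whereas caffeic acid 3-O-methyltransferase orange1.1t04194 fell by 1.90.

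Cuticle and lipid transfer genes had 8 of 46 called lower and none higher (limma without the trend called 7 lower and none higher, and at an unadjusted p under 0.05, 26 were lower and 4 higher). A DIR1-like lipid-transfer protein gene (orange1.1t01576) had 22.4, 22.7 and 11.4 FPKM at stage 2, against 175, 166 and 143 FPKM at stage 1 and 196, 177 and 193 FPKM at stage 3, a contrast of -3.20 ± 0.17. A related gene outside the list, lipid-transfer DIR1 (Cs5g24670), had 208, 188 and 152 FPKM at stage 2, against 1369, 1271 and 1321 FPKM at stage 1 and 1436, 1393 and 1349 FPKM at stage 3. DIR1 takes part in long-distance defence signalling in Arabidopsis. The watered stages differed by 0.23 and 0.08 in these genes. 3-ketoacyl-CoA synthase 19-like (Cs9g07970), of wax synthesis, had 6.87, 5.34 and 7.36 FPKM at stage 2, against 24.96, 19.2 and 23.2 FPKM at stage 1 and 11.6, 12.7 and 10.6 FPKM at stage 3.

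Jasmonate genes were called in 1 direction. Of 19 tested, 6 were called lower and none higher, all 6 were reversible, at an unadjusted p under 0.05, 12 were lower and 0 higher, and limma without the trend also called 6 lower and none higher. The median contrast was -0.61. Linoleate 13S-lipoxygenase 2-1 (orange1.1t03769), of the first step of jasmonate synthesis, had 1.46, 2.57 and 2.95 FPKM at stage 2, against 55.2, 49.2 and 52.6 FPKM at stage 1 and 20.1, 18.4 and 17.9 FPKM at stage 3. Lipoxygenase 3-1 (Cs1g17380) had 23.9, 25.2 and 25.6 FPKM at stage 2, against 75.1, 71.3 and 67.9 FPKM at stage 1 and 247, 228 and 244 FPKM at stage 3. TIFY proteins repress jasmonate responses and are themselves induced by the hormone in Arabidopsis. TIFY 5A-like (Cs2g03240) had 1.46, 3.39 and 3.24 FPKM at stage 2, against 20.3, 19.2 and 14.4 FPKM at stage 1 and 20.8, 23.4 and 22.4 FPKM at stage 3, and TIFY 10A-like (Cs1g17210) had 14.7, 17.5 and 17.4 FPKM at stage 2, against 54.5, 56.6 and 47.6 FPKM at stage 1 and 94.7, 99.9 and 99.8 FPKM at stage 3. Stage 2 was the lowest stage in each. Between the watered stages lipoxygenase 3-1 was called higher and lipoxygenase 2-1 lower at stage 3, and neither TIFY gene was called.

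Several cytokinin response genes were still low after rewatering. Of 22 cytokinin genes tested, 7 were called lower and 1 higher, and 4 of the 6 reversible falls were still lower at stage 3 than at stage 1. Type-A response regulators are switched on by cytokinin and damp its signal. ARR4-like (Cs7g07940) had 8.03, 9.96 and 8.71 FPKM at stage 2, against 93.03, 93.1 and 93.2 FPKM at stage 1 and 17.9, 17.7 and 19.5 FPKM at stage 3, a contrast of -2.11 ± 0.07 and a stage 3 minus stage 1 difference of -2.28 (adjusted p = 7.03e-09). ARR15-like (Cs5g04810) had 10.2, 10.3 and 11.1 FPKM at stage 2, against 86.8, 91.8 and 97.7 FPKM at stage 1 and 30.4, 26.9 and 29.03 FPKM at stage 3. The receptor gene histidine kinase 4-like (Cs2g17860) had 9.76, 11.6 and 10.3 FPKM at stage 2, against 52.9, 49.1 and 51.8 FPKM at stage 1 and 20.1, 21.02 and 19.02 FPKM at stage 3. In the opposite direction, adenylate isopentenyltransferase 3 (Cs5g31590), an enzyme of cytokinin synthesis, had 40.7, 42.2 and 42.5 FPKM at stage 2, against 9.3, 9.93 and 8.05 FPKM at stage 1 and 17.5, 21.6 and 20.2 FPKM at stage 3.

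Among DREB and ERF factors several genes fell at stage 2 and were highest at stage 3. Of 62 AP2/ERF and ethylene genes, 9 were called lower and 1 higher, and 4 of the 8 reversible falls were higher at stage 3 than at stage 1. DREB proteins switch on dehydration and cold response genes in Arabidopsis. The DREB1D-like gene (Cs6g15360) had 0, 0.93 and 0 FPKM at stage 2, against 3.8, 2.25 and 1.85 FPKM at stage 1 and 19.8, 28.1 and 21.2 FPKM at stage 3, and the DREB1B-like gene Cs5g10240 had 5.28, 5.89 and 6.73 FPKM at stage 2, against 12.3, 14.2 and 11.7 FPKM at stage 1 and 93.5, 88.5 and 71.6 FPKM at stage 3. The stage 3 minus stage 1 difference was 2.75 and 2.63. ERF003-like (Cs7g06120) had 0.51, 0.26 and 1.71 FPKM at stage 2, against 12.1, 17.01 and 12.2 FPKM at stage 1 and 9.14, 9.66 and 10.7 FPKM at stage 3 and was not called between the watered stages. ABR1-like (Cs3g21660) was the member that rose, with 5.33, 6.01 and 4.2 FPKM at stage 2, against 1.3, 1.16 and 2.34 FPKM at stage 1 and 1.23, 1.53 and 0.8 FPKM at stage 3. With genes added by KEGG entry, 16 of 92 were called lower and 1 higher.

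**Figure D4:**
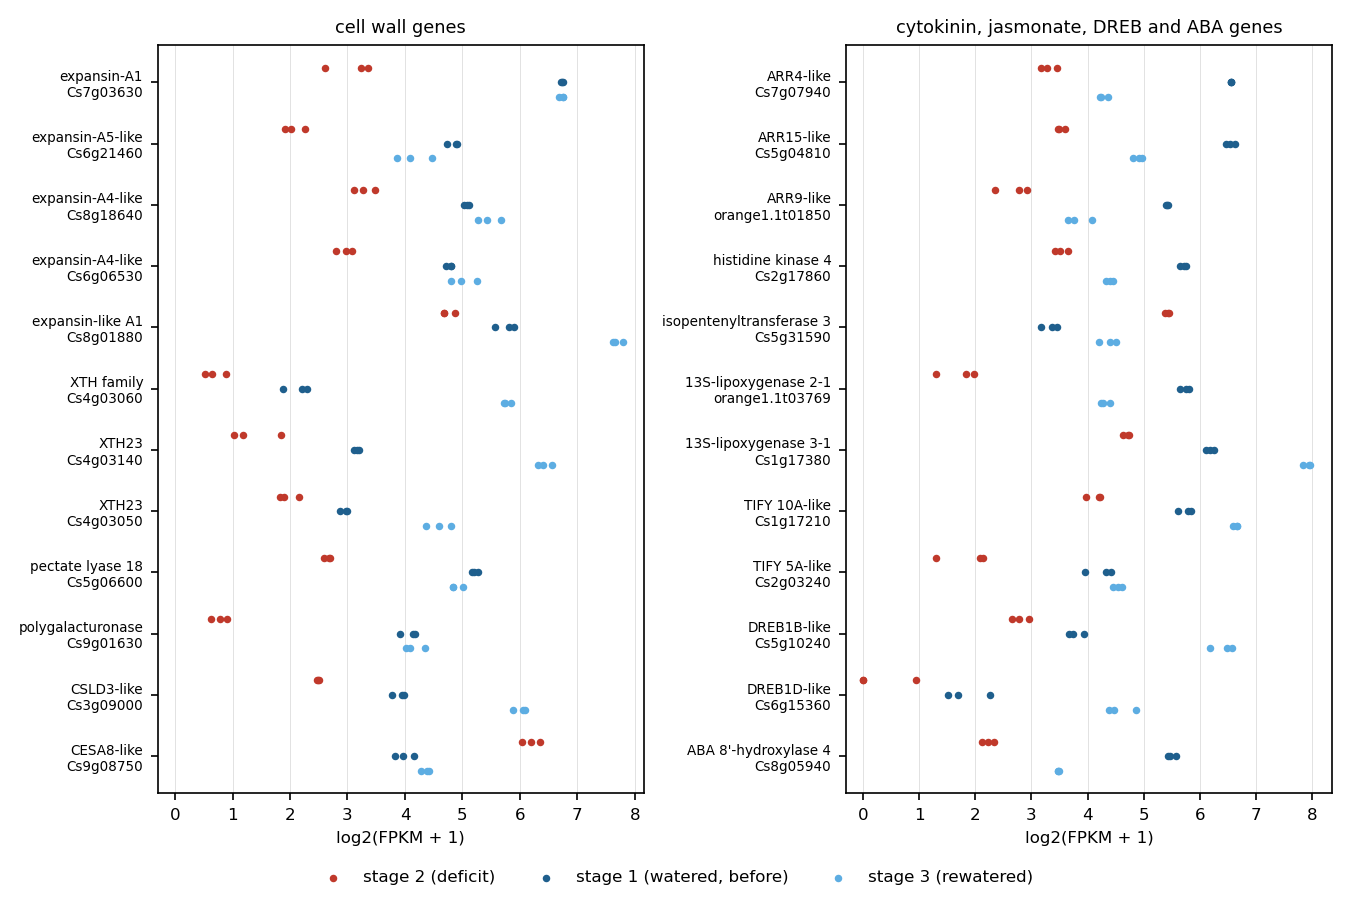
Expression of cell wall genes (left) and of cytokinin, jasmonate, DREB and abscisic acid genes (right) in each library, as log2(FPKM + 1) on the x axis, with 1 point per library coloured by stage. Stage 2 is lowest in the genes shown apart from CESA8-like and isopentenyltransferase 3, and stage 3 is above stage 1 for XTH and DREB genes and below it for ARR genes.

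In 4 other transcription factor families most members were not called, and the calls that were made were mainly falls. Falls also outnumbered rises over all genes tested, at 3.95% against 2.25%. WRKY factors had 3 of 27 called lower and none higher (9 lower and 3 higher at an unadjusted p under 0.05), with WRKY 53-like (orange1.1t00472) at 43.6, 52.5 and 52.6 FPKM at stage 2, against 103, 100.4 and 98.5 FPKM at stage 1 and 129, 127 and 122 FPKM at stage 3. NAC factors had 4 of 33 lower and 1 higher. The rise was that of NAC 72-like (Cs1g06760), whose Arabidopsis counterpart is induced by dehydration and abscisic acid, with 99.5, 95.98 and 95.1 FPKM at stage 2, against 63.2, 56.5 and 61.1 FPKM at stage 1 and 26.1, 30.5 and 27.5 FPKM at stage 3. The organ boundary gene CUP-SHAPED COTYLEDON 2-like (Cs1g08000) had 0.33, 0.33 and 0.35 FPKM at stage 2, against 3.06, 1.61 and 2.38 FPKM at stage 1 and 2.04, 1.63 and 1.9 FPKM at stage 3. MYB factors had 4 of 48 lower and 1 higher, and without stage 2 replicate 3 the calls were 3 in place of 5. bHLH factors had 2 of 30 lower and none higher (15 lower and 4 higher at an unadjusted p under 0.05), and 5 were called without stage 2 replicate 3, against 4 without stage 2 replicate 2 and 4 without stage 1 replicate 1. bHLH92-like (Cs9g08460) had 0.55, 0 and 0.92 FPKM at stage 2, against 4.97, 2.4 and 2.99 FPKM at stage 1 and 42.8, 43.7 and 40.2 FPKM at stage 3, and it was 3.32 higher at stage 3 than at stage 1. FAF1 (Cs5g31330), of a family that affects meristem size in Arabidopsis, had 0.12, 0.12 and 0 FPKM at stage 2, against 16.6, 15.1 and 15.3 FPKM at stage 1 and 6.69, 6.74 and 5.86 FPKM at stage 3. A gene described as DNA binding (Cs3g03350) was listed at 0 in the 3 stage 2 libraries, against 24.2, 13.7 and 22.5 FPKM at stage 1 and 3.37, 4.17 and 4.37 FPKM at stage 3.

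None of the abscisic acid and dehydration lists had a called rise, which in lists of this size is near the 2.25% of all genes called higher. Of 18 genes of abscisic acid perception and signalling, none was called, and their contrasts lay between -0.76 and 0.91. At an unadjusted p under 0.05, 7 were higher and 3 lower, limma without the trend called none, and 2 were called without stage 2 replicate 1. Of 13 genes of abscisic acid synthesis and turnover, 2 were called lower and none higher (6 lower and 2 higher at an unadjusted p under 0.05), and both encode abscisic acid 8'-hydroxylases, which inactivate the hormone. Hydroxylase 4-like (Cs8g05940) had 3.68, 3.33 and 4.07 FPKM at stage 2, against 46.7, 42.1 and 43.3 FPKM at stage 1 and 10.1, 10.3 and 10.1 FPKM at stage 3. Hydroxylase 1-like (Cs6g19380) had 5.99, 6.71 and 7.27 FPKM at stage 2, against 17.6, 17.2 and 15.8 FPKM at stage 1 and 40.6, 39.3 and 34.3 FPKM at stage 3, so that 1 gene ended below and the other above stage 1. Of 9 LEA and dehydrin genes, 2 were called lower and none higher (4 lower and 1 higher at an unadjusted p under 0.05), and 1 of the falls was reversible. Between the watered stages 5 of the 9 were called lower at stage 3 and none higher. The lasting fall was that of an 18 kDa seed maturation protein-like gene (orange1.1t02243, picked once its values were known). It had 855, 807 and 579 FPKM at stage 2, against 4701, 4694 and 4611 FPKM at stage 1 and 729, 767 and 827 FPKM at stage 3. LEA protein 2-like (Cs1g13160) had 0, 0.62 and 0 FPKM at stage 2, against 7.88, 7.27 and 6.14 FPKM at stage 1 and 1.51, 1.84 and 4.14 FPKM at stage 3. The gene EARLY RESPONSIVE TO DEHYDRATION 15-like (Cs7g30330, chosen after its values were seen) was higher, with 209.6, 204 and 197 FPKM at stage 2, against 51.4, 56.9 and 55.4 FPKM at stage 1 and 55.4, 49.9 and 61.1 FPKM at stage 3.

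Water channel and solute genes were called lower more often than higher, as were all genes tested (3.95% lower and 2.25% higher). Of 11 aquaporins, 3 were called lower and none higher, 8 were lower and 0 higher at an unadjusted p under 0.05, and the highest contrast of the list was -0.08. Without stage 2 replicate 3, 1 was called. Of the falls 2 were reversible, and both stand near the fold threshold. The call of Cs6g11690 was lost without stage 2 replicate 1 (-0.95) or stage 3 replicate 3 (-0.998), and that of Cs3g20790 without stage 2 replicate 3 (-0.92). The other fall, PIP2-1-like (Cs6g11660, picked once its values were known), had 1.65, 0 and 0 FPKM at stage 2, against 1.15, 3.41 and 1.83 FPKM at stage 1 and 1.44, 2.18 and 3.65 FPKM at stage 3. PIP2-2-like (Cs6g11690), of the plasma membrane, had 4.83, 6.28 and 5.8 FPKM at stage 2, against 10.6, 10.02 and 8.76 FPKM at stage 1 and 14.5, 15.99 and 18.5 FPKM at stage 3, and NIP5-1-like (Cs3g20790) had 25.1, 25.1 and 17.2 FPKM at stage 2, against 40.5, 46.6 and 38.2 FPKM at stage 1 and 53.99, 57.7 and 56.8 FPKM at stage 3. A PIP1-4 gene outside the list (Cs6g07970, chosen after its values were seen) had 8.63, 11.8 and 11.6 FPKM at stage 2, against 90.6, 88.7 and 80.8 FPKM at stage 1 and 42.2, 40.4 and 45.5 FPKM at stage 3. Of 22 raffinose, trehalose and proline genes, 5 were called lower and 1 higher. Inositol-3-phosphate synthase (Cs1g01700), of the first step to inositol and raffinose, had 164, 168 and 162 FPKM at stage 2, against 670.4, 625 and 631 FPKM at stage 1 and 289.6, 270.0 and 273 FPKM at stage 3. Trehalose-phosphate phosphatase D-like (Cs3g18450) had 1.31, 2.0 and 1.18 FPKM at stage 2, against 4.93, 3.01 and 3.9 FPKM at stage 1 and 33.2, 29.2 and 29.5 FPKM at stage 3. Of 41 starch and sucrose genes, 1 was called higher and none lower (10 lower and 14 higher at an unadjusted p under 0.05), acid beta-fructofuranosidase (Cs5g09220), with 47.1, 47.3 and 45.1 FPKM at stage 2, against 33.7, 29.1 and 26.8 FPKM at stage 1 and 19.7, 16.3 and 13.99 FPKM at stage 3. That call was lost with quantile normalization, with median scaling and without stage 1 replicate 3 or stage 3 replicate 3, and 2 genes were called without stage 2 replicate 1.

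Cell division genes were called lower more often than higher, which also holds for all genes tested (3.95% lower and 2.25% higher). Of 59 genes for cyclins, cyclin-dependent kinases and mitosis, 6 were called lower and 1 higher, and 28 were lower and 6 higher at an unadjusted p under 0.05. Cyclin-D3-1-like (Cs3g23120), which drives entry into the cell cycle, had 11.1, 13.3 and 12.3 FPKM at stage 2, against 29.2, 26.9 and 30.3 FPKM at stage 1 and 35.1, 32.3 and 32.5 FPKM at stage 3. The mitotic cyclin S13-6-like (Cs6g16880) had 0.11, 0.14 and 0 FPKM at stage 2, against 3.86, 2.51 and 3.9 FPKM at stage 1 and 1.23, 1.23 and 0.41 FPKM at stage 3. The rise was that of a kinesin-like KIF22-B gene (Cs6g06320), with 304, 301 and 224 FPKM at stage 2, against 107, 113 and 116 FPKM at stage 1 and 120.3, 121 and 141 FPKM at stage 3. Of 32 histone and DNA replication genes, 2 were called lower and none higher (11 lower and 2 higher at an unadjusted p under 0.05). Histone H3 (Cs1g20090) had 1.09, 1.52 and 0.48 FPKM at stage 2, against 17.3, 19.4 and 17.98 FPKM at stage 1 and 5.49, 5.2 and 4.79 FPKM at stage 3. Over the settings the calls of this last list were from 1 to 5, among them 4 without stage 1 replicate 1, 1 without stage 1 replicate 3, 5 without stage 2 replicate 1 and 5 with median scaling. In bulk buds, fewer dividing cells and less RNA per cell cannot be told apart.

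Auxin and gibberellin genes were called in both directions. Of 49 auxin genes, 2 were called higher and 3 lower, counts near the 2.25% and 3.95% of all genes tested. Auxin efflux carrier component 1c-like (Cs6g17000) had 2.04, 1.07 and 1.78 FPKM at stage 2, against 9.68, 9.94 and 10.7 FPKM at stage 1 and 6.66, 6.3 and 6.48 FPKM at stage 3, and auxin transporter-like protein 5 (Cs8g02900) had 3.62, 4.15 and 4.36 FPKM at stage 2, against 12.02, 10.7 and 12.3 FPKM at stage 1 and 9.72, 8.37 and 7.97 FPKM at stage 3. Of 21 gibberellin genes, 1 was called higher and 3 lower. Gibberellin-regulated protein 5-like (Cs6g17190) had 7.19, 10.9 and 8.02 FPKM at stage 2, against 30.3, 29.6 and 30.4 FPKM at stage 1 and 23.4, 24.5 and 16.6 FPKM at stage 3 and gibberellin-regulated protein 4-like (Cs6g21260) had 0, 2.12 and 1.43 FPKM at stage 2, against 8.84, 5.0 and 7.35 FPKM at stage 1 and 3.46, 4.16 and 4.6 FPKM at stage 3, whereas gibberellin-regulated protein 1-like (Cs3g26100) had 193, 181 and 144 FPKM at stage 2, against 50.7, 54.4 and 61.9 FPKM at stage 1 and 118, 132 and 139.9 FPKM at stage 3, a contrast of 1.00 that missed the call with quantile normalization (1.00), median scaling (0.95) and several left-out libraries, as Cs3g26100 stands at the fold threshold.

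Flowering genes named in the study differed in their course, and apart from those the MADS-box list was counted. Squamosa promoter-binding-like protein 9 (orange1.1t02265), of a family that promotes the adult and floral phase, had 18.01, 15.1 and 16.6 FPKM at stage 2, against 46.2, 50.05 and 53.2 FPKM at stage 1 and 33.5, 37.3 and 39.4 FPKM at stage 3, a contrast of -1.32 ± 0.08. Its relatives Cs5g12260, Cs1g03630 and orange1.1t02597 had contrasts of -0.33, -0.84 and -0.68 and were not called. A CEN-like gene of the FT and TFL1 family (Cs8g15080) had 1.01, 0 and 0 FPKM at stage 2, against 3.62, 1.96 and 2.52 FPKM at stage 1 and 5.39, 6.52 and 7.49 FPKM at stage 3, a contrast of -2.04 ± 0.25. MOTHER OF FT AND TFL1-like (Cs2g06960) had 83.6, 83.3 and 69.7 FPKM at stage 2, against 165, 154 and 164 FPKM at stage 1 and 53.3, 61.7 and 54.7 FPKM at stage 3, lower at each later stage, with a contrast of -0.28 that was not called. Of 23 MADS-box genes, AGL16-like (Cs3g16896) was called higher, with 1.3, 2.43 and 1.77 FPKM at stage 2, against 0.16, 0.16 and 0.32 FPKM at stage 1 and 0.68, 0.16 and 0.31 FPKM at stage 3, and a SEPALLATA 1-like gene (Cs7g11800) was called lower, with 1.59, 5.83 and 3.56 FPKM at stage 2, against 6.16, 7.26 and 6.85 FPKM at stage 1 and 8.36, 11.6 and 9.32 FPKM at stage 3. AGL16-like reached 1 FPKM in stage 2 libraries only, so leaving out any of these removed it from the test. Its absence from those calls is therefore no sign of a weaker contrast. The SEPALLATA 1-like gene was not called without stage 2 replicate 1 (contrast -0.70) and was still called without stage 2 replicate 2 or replicate 3.

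Of 32 nitrogen and amino acid genes, 2 were higher and 4 lower, among them the amino acid permease Cs8g02760 (contrast 1.03) and the nitrate transporter 2.7-like gene Cs2g27650 (-1.02). Both stand at the fold threshold. The call of Cs8g02760 was lost with quantile normalization (0.98), with median scaling (0.98) and without stage 1 replicate 1, stage 2 replicate 2 (0.94) or stage 3 replicate 3, and that of Cs2g27650 without stage 2 replicate 3 (-0.94) or stage 3 replicate 3. Of 115 genes of protein degradation and autophagy, 2 were called higher and 2 lower, fewer than the 2.25% and 3.95% of all genes tested. The lower ones, the ubiquitin ligases PUB22-like (Cs6g13640) and PUB23-like (orange1.1t04594), were higher at stage 3 than at stage 1, and their stage 2 minus stage 1 differences were only -0.29 for Cs6g13640 and -0.35 for orange1.1t04594. None of 48 cytosolic ribosomal protein genes was called (at an unadjusted p under 0.05, 21 were higher and 5 lower), although up to 2 were called with 1 library left out. None of 42 splicing factors was called (17 higher and 1 lower at an unadjusted p under 0.05). Limma without the trend gave the same counts as those above in each list apart from the cuticle list. Both universal stress proteins of the list were uncalled, and of 8 light signalling genes 1 was called higher, the gene Cs2g14490 described above. In the list of 10 SPL and PEBP genes 1 was called lower, orange1.1t02265. The CEN-like gene Cs8g15080, described above and also called lower, is of the same PEBP family and is not in that list.

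Gene Ontology terms were counted in the same way, from an annotation column that the lists did not use. Of 203 terms with at least 15 tested genes, the terms named here were chosen after their values were seen. Over all genes tested, 2.25% were called higher and 3.95% lower. The extracellular region had 7 of 38 genes called lower and 1 higher, and cellulose synthase activity 4 of 15 lower and none higher. Signal transduction had 7 of 53 lower and 1 higher, defense response 3 of 22 higher and none lower, and translation 1 of 86 in each direction.

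**Figure D5:**
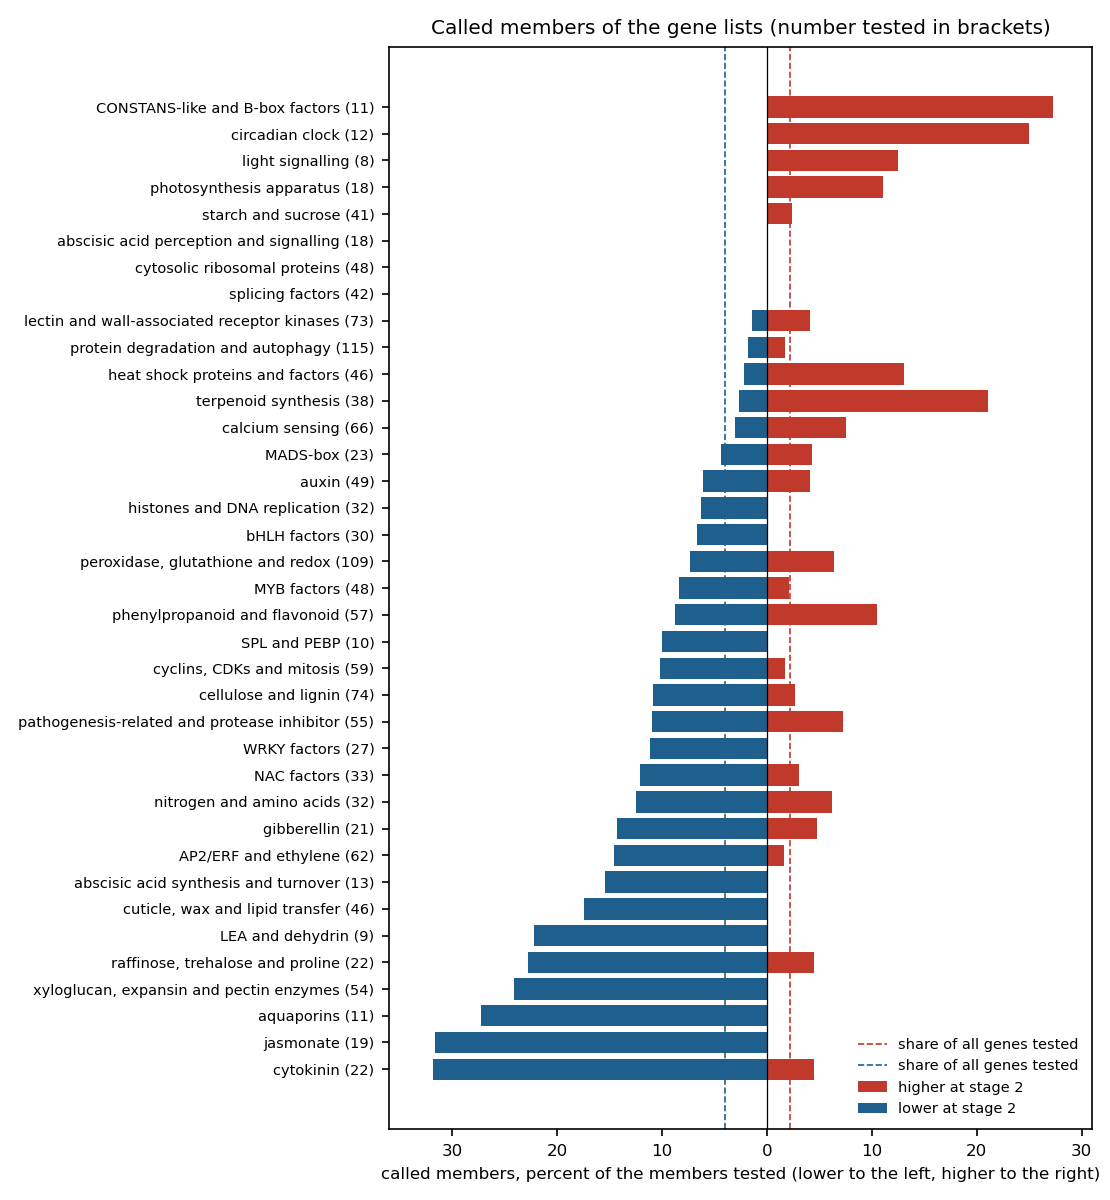
Share of the tested members of each gene list that was called higher (red, to the right) or lower (blue, to the left) at stage 2, in percent, for lists with at least 8 tested members; dashed lines mark the share of all genes tested, 2.25% higher and 3.95% lower. Cytokinin, jasmonate, aquaporin and wall-loosening lists lie farthest to the left, and the CONSTANS-like, clock and terpenoid lists farthest to the right.

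Stage 2 libraries listed 19210 to 19579 genes above 0, against 19956 to 20099 at stage 1 and 19716 to 19752 at stage 3. The part of this in the falls was not tested. The median FPKM over the 17470 genes above 0 in all libraries was 13.8 to 14.6 at stage 2, against 13.3 to 13.5 at stage 1 and 13.5 to 13.9 at stage 3, with the highest value in stage 2 replicate 3. Pearson's r of log2(FPKM + 1) across genes, which are not independent replicates, was 0.982 to 0.986 between libraries of the same stage. The number of reads cannot be taken from FPKM, so no counting intervals are given, and a value of 0 says only that a gene is listed at 0.

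A meristem gene was present at each stage. SHOOT MERISTEMLESS-like (Cs2g02590) averaged 70.5 FPKM at stage 2, against 57.3 FPKM at stage 1 and 70.5 FPKM at stage 3, whereas the WUSCHEL-like gene Cs1g25270 was at 0.06 FPKM at stage 2, against 1.02 FPKM at stage 1 and 0.817 FPKM at stage 3. The summed FPKM of 23 meristem and bud markers was 852.5 to 937.8 at stage 2, against 661.7 to 698.8 at stage 1 and 656.8 to 685.4 at stage 3, and 1 of 18 tested was called higher and 2 lower. Much of that sum is the BEL1-like genes Cs6g13660 (339 FPKM at stage 2, against 288 and 208 FPKM at stages 1 and 3) and orange1.1t04599. The CUP-SHAPED COTYLEDON 2-like and 3-like, WUSCHEL-like and CLAVATA1-like genes had contrasts of -1.20, -1.12, -0.855 and -0.28. The sum therefore says little of such genes. The 8 leaf markers summed to 3172 to 3876 at stage 2, against 2013 to 2067 at stage 1 and 3893 to 4617 at stage 3. The 10 xylem markers summed to 72.1 to 87.7 at stage 2, against 26.5 to 32.9 at stage 1 and 27.2 to 27.65 at stage 3. That rise came from the CESA8-like gene Cs9g08750 described above, and the other markers did not share it. The CESA8-like gene Cs2g04590 was at 1.16 FPKM at stage 2, against 3.24 FPKM at stage 1 and 1.46 FPKM at stage 3. The subunit 7-like gene Cs4g01990 had a contrast of -0.58. Laccase-12 (Cs8g20840) was at 3.33 FPKM at stage 2, against 3.36 FPKM at stage 1 and 3.38 FPKM at stage 3. The 27 floral MADS markers summed to 168.2 to 187.9 at stage 2, against 188.8 to 203.2 at stage 1 and 169.2 to 182.7 at stage 3. Most of that sum is 1 AGL19-like gene, Cs5g10050 (114 FPKM at stage 2, against 122 FPKM at stage 1 and 99.01 FPKM at stage 3), so it says little of floral organ genes. The part of such shifts in cell make-up in the results above was not tested.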

How the data were processed

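Bud RNA of 9 libraries was sequenced, 3 per stage. The study's methods describe 3 groups of trees as the 3 repeats, without saying whether the same groups were sampled at each stage. Per the study's methods, read filtering used the FASTX-Toolkit and mapping used BWA, with sweet orange as the genome, and the authors then deposited FPKM per gene for each library. Sources used here give no tool versions, no counting program and no rule for reads that fit several genes. The depth of the libraries is unknown, since FPKM holds no read counts.

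Values were tested as log2(FPKM + 1), with a pseudocount of 1, in 1 limma fit (limma 3.58.1, R 4.3.3, moderated with a mean-variance trend) over the 3 stages for genes of at least 1 FPKM in at least 3 libraries, with Benjamini-Hochberg adjustment over all genes tested. The contrast was stage 2 minus the average of stages 1 and 3. Python 3.11.15, numpy 2.4.6, pandas 2.3.3 and matplotlib 3.10.9 were used for counts and figures. P-values set a contrast against the spread between replicate libraries of the same stage, which limma moderates with the spread of other genes.

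Of 22353 genes, 9826 had a best match that names a function, and 38 gene lists were built from these names. The members and lists were chosen with earlier results of these data known, and lists were trimmed by reading the matched names and not the values. Named were the 12 largest reversible rises and falls, up to 4 reversible members per list in the direction of most calls with up to 2 in the other, and genes that the study names by identifier. Other genes are said in the text to be chosen after their values were seen, apart from the bud markers. The alternatives were a filter at 5 FPKM or none, pseudocounts of 0.1 and 0.01, quantile and median scaling, limma without the trend, an adjusted p under 0.01, no fold threshold, calls against each watered stage, a replicate block and each library left out. Lists extended by KEGG entry were added after seeing the data.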

Additional observations from a re-analysis of the deposited data

How the results depend on the processing

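Without the fold threshold 3895 genes were higher and 3125 lower, of which 2774 and 1973 were reversible. With calls required against each watered stage, 250 were higher and 363 lower, of which 248 and 355 were reversible. The other alternatives kept these counts within 1.5 times those reported. With no filter on low values 398 genes were higher and 696 lower, of which 375 and 618 were reversible. With each library left out in turn there were 387 to 405 genes higher and 684 to 760 lower, with 367 to 382 and 617 to 689 reversible. Pseudocounts of 0.1 and 0.01 gave 532 and 539 higher and 1018 and 1004 lower. Same-numbered libraries did not deviate together (r of -0.10 to 0.03 across genes), so the numbers were not taken to pair the samples, and a fit with a replicate block gave 402 higher and 702 lower genes, 373 and 618 of them reversible. Of 2559 values for 153 named genes under the alternatives, 2498 kept their direction and side of the threshold, 61 missed the call in 20 genes and none changed direction. With a filter at 5 FPKM, fewer members of several lists were tested and their calls were fewer: 4 for terpenoids, 4 for cuticle, 3 for cyclins, 3 for auxin and 1 for NAC factors. With members added by KEGG entry there were 30 calls for wall loosening, 20 for heat shock, 17 for AP2/ERF, 12 for calcium (5 higher and 7 lower) and 11 for auxin.

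Genes with low FPKM are the least certain, since the depth behind a value is unknown, and a log2(FPKM + 1) contrast is compressed for them. Names rest on best protein matches, so that genes without a named match are missing from the lists.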

Other observations

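Further marker genes are given here as values. The BEL1-like homeodomain gene orange1.1t04599 averaged 144 FPKM at stage 2, against 40.8 FPKM at stage 1 and 56.5 FPKM at stage 3, the called rise among the meristem markers. The oleosin 18.2 kDa-like gene Cs2g27550, a seed marker whose protein coats oil bodies, averaged 0.897 FPKM at stage 2, against 6.17 FPKM at stage 1 and 6.5 FPKM at stage 3. The summed FPKM of 7 pollen and anther markers was 11.5 to 16.97 at stage 2, against 12.8 to 14.5 at stage 1 and 12.03 to 14.93 at stage 3. These ranges overlap, and none of the 3 tested was called. The genes named here were picked once their values were known.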
